A study of Mus musculus with 8 samples.

Results

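The collagen genes were described in bulk RNA from mouse cells sorted as tumour-infiltrating CD8 T cells. They were taken as every protein-coding row whose symbol names a collagen alpha chain (Col, a type number, a and a chain number), which gave 32 of the 19673 genes listed. Py8119, a mouse mammary tumour cell line, had been injected into hosts with Mtdh (metadherin) knocked out, the KO group, or into wild-type hosts, the WT group. Both groups carried tumours of the same line, and viable cells positive for CD45, CD3e and CD8 were taken by flow sorting from dissociated tumours after red cell lysis. Each group had 4 biological replicates, named KO or WT library 1 to 4. The strain, age and sex of the hosts and the form of the Mtdh allele were not given in the sources used here. The comparison is between hosts with and without Mtdh, read on the collagen transcripts of the sorted material.

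Collagens are the main structural proteins of the extracellular matrix, and their chains wind together into triple helices. Fibrillar collagens form the cables of connective tissue, type IV collagen forms the sheet of basement membranes, and type VI collagen forms beaded filaments around cells. In tumours they are made mostly by fibroblasts, pericytes and some tumour cells, and T cells meet them as matrix.

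By the name of the authors' table, the values are gene-level counts scaled with DESeq2, and they are called normalized values below. Libraries held an estimated 16400000 to 29600000 reads from an estimated 113955 to 636055 distinct cDNA fragments. A single fragment was worth a normalized value of 23.4 in WT library 3 and of 150 in KO library 2, so values near these rest on few molecules. Mtdh, the targeted gene, lay at 5118, 4622, 2538 and 3341 in KO libraries 1 to 4 and at 9324, 12745, 6407 and 7974 in WT libraries 1 to 4 (log2 fold change -1.23, SE 0.25, adjusted p = 0.0400 by limma). That call was lost when KO library 2, 3 or 4 or WT library 1 or 2 was left out (adjusted p of 0.056 to 0.241 by limma). WT library 2 stood apart on the sorted cell type: its 12 CD8 T cell markers summed to 7917, against 20177 to 45062 in the other 7 libraries. In every library, however, the 13 macrophage and monocyte markers summed to more than the CD8 markers, at 111807 to 296115. Most of that sum came from a single gene, Lyz2, at 75242 to 211543. In KO library 3 the macrophage and monocyte markers other than Lyz2 summed to less than the CD8 markers (45062). The share of each cell type in the sorted material was not tested.

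Collagen transcripts were present in every library, and no collagen gene differed between the groups past the threshold. The test covered 29 of the 32, those whose mean reached 10, together with all other genes of that level (limma on log2 of the value plus 1, Benjamini-Hochberg adjusted p under 0.05). None of the 29 passed, while 38 of 16120 genes passed over the whole table, which is 0.236% of them, 0.0248% lower and 0.211% higher in KO. The smallest limma adjusted p of a collagen gene was 0.145, for Col6a2, a type VI chain. Log2 fold changes, KO over WT, were negative for 24 of the 29 and had a median of -0.55, beside 56.6% negative and a median of -0.12 over all genes tested. At an unadjusted p under 0.05, 4 collagen genes were lower in KO and 0 were higher, beside 3.49% and 3.21% of all genes. The 4 lower genes were Col6a2, Col6a1, Col5a1 and Col4a6. No collagen gene had groups that did not overlap, beside 2.09% of all genes with every KO library below every WT library and 2.02% with every KO library above.

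The direction was most uniform among the abundant collagens. Of the 14 with a mean of at least 500, all 14 had a negative log2 fold change, from -1.62 to -0.11, with a median of -0.69. Over the 5509 genes of that level in the table, 50.05% were negative and the median was -0.00045. All 14 collagens had their highest value in KO library 1 or WT library 2, so they are not 14 separate observations. Without KO library 2, Col14a1 (0.41), Col1a2 (0.19) and Col6a3 (0.08) were positive and the others stayed negative. Col1a2 was also positive without KO library 4 (0.20) or WT library 2 (0.06), and Col14a1 without WT library 1 (0.03). Among the 8 tested collagens with a mean under 100, 4 were negative and 4 positive, with a median of 0.16, and their standard errors were 1.94 to 2.25. Over the 5878 genes tested at that level, 60.9% were negative and the median was -0.56. Both level limits were chosen after the values were seen.

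Single libraries set much of this picture. WT library 2 held the highest value of 14 of the 29 genes and KO library 1 that of 9, beside 17.3% and 15.5% of all genes tested. The 4 lower genes at an unadjusted p under 0.05 became 10 when KO library 1 was left out, 2 for KO library 4, 1 each for WT libraries 1 and 2, and 7 for WT library 4. With KO library 1 and WT library 2 both left out they were 6, and 0 collagen genes passed the adjusted threshold. Over the same 29 genes the median was -1.07 with KO library 1 left out, -0.42 with WT library 2 left out and -0.73 with neither of them.

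**Figure D1:**
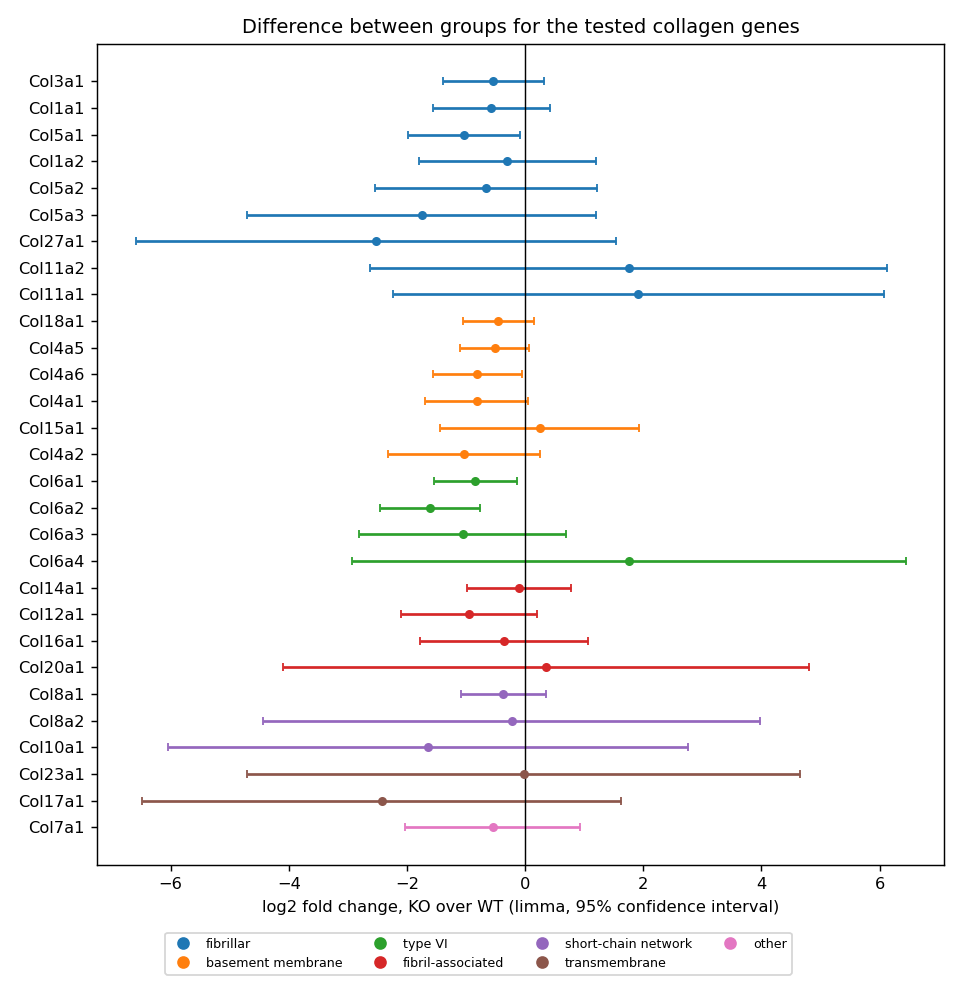
Log2 fold change, KO over WT, of each of the 29 tested collagen genes on the log2(value + 1) scale (horizontal axis), with its 95% confidence interval from limma, coloured by chain group. Most points lie left of 0, and the intervals of Col6a2, Col6a1, Col5a1 and Col4a6 do not reach 0 before adjustment over all genes.

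Levels between genes were compared per kb of exon, using the union of all exons that GENCODE M21 annotates to a gene. Levels and ratios between genes therefore depend on that annotation, which gives 4380 bases for Col6a1 and 8326 for Col6a2. Before division by length, the mean of Col3a1 (4237) was above that of Col6a1 (3643). The type VI chain Col6a1 had the highest level, with a mean of 832 normalized values per kb over the 8 libraries. Next came Col3a1, the chain of type III fibrils, at 432, and Col18a1, a multiplexin of basement membrane zones, at 395. Col8a1 of the short-chain network type VIII (268), Col4a5 of type IV (254) and Col1a1 of type I (246) followed. The levels of these 6 genes overlapped between libraries, and their order is that of means over all 8. In WT alone the mean of Col18a1 (472) was above that of Col3a1 (469.9), and that of Col4a5 (299) was above that of Col8a1 (293). Also in WT, Col6a2 (276), which is not among the 6, was above Col1a1 (253). In KO alone the mean of Col1a1 (239.5) was above that of Col4a5 (208). All 32 genes together made up 0.0551% to 0.202% of the summed values of a library, lowest in KO library 2 and highest in WT library 2.

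Summed per kb, the collagens reached 5069, 2008, 2933 and 2034 in KO libraries 1 to 4 and 3905, 6948, 3857 and 2648 in WT libraries 1 to 4. The groups overlapped: KO library 1 was above 3 of the 4 WT libraries, KO libraries 2 and 4 were below every WT library, and KO library 3 was above WT library 4 only. The means were 3011 ± 1438 in KO and 4340 ± 1834 in WT (SD; n = 4 per group), and the KO mean without library 1 was 2325 ± 527 (SD, n = 3). In WT the make-up was steady, with 24.2% ± 3.21 fibrillar, 29.5% ± 3.18 basement membrane and 31.98% ± 3.62 type VI chains (SD, n = 4). In KO it varied more, with 25.7% ± 13.3, 30.9% ± 10.3 and 25.98% ± 10.7 (SD, n = 4). Fibrillar chains made up 44.6% of the collagen level in KO library 1 and 14.1% in KO library 4, while basement membrane chains led in KO library 2 at 43.3% and type VI chains in KO library 3 at 39.7%.

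**Figure D2:**
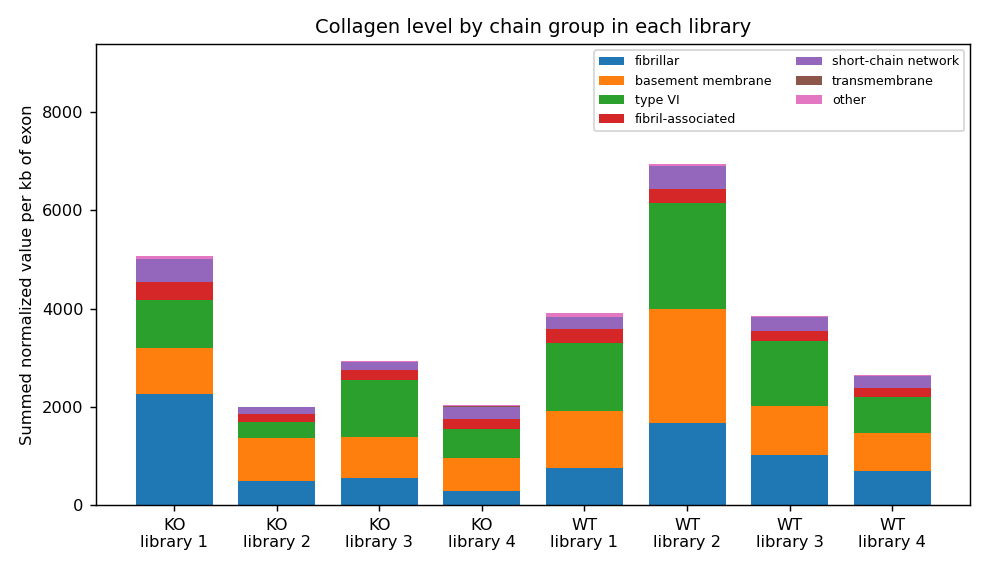
Summed normalized value per kb of exon (vertical axis) of the 32 collagen genes in each library, stacked by chain group. WT library 2 (6948) and KO library 1 (5069) are the tallest, and the fibrillar part of KO library 1 is the largest of the 8.

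Type VI collagen was represented by 5 genes, of which 4 were tested. Its filaments are built from the chains of Col6a1 and Col6a2 and a larger one, that of Col6a3 or a relative of it. Col6a2 (ENSMUSG00000020241, mm39 chromosome 10, 76431596 to 76459464, minus strand) lay at 1014, 325, 1418 and 511 in KO libraries 1 to 4. In WT libraries 1 to 4 it lay at 2472, 3149, 2454 and 1116. All KO values were below those of WT libraries 1, 2 and 3, while WT library 4 fell between KO libraries 1 and 3. The means were 817 ± 495 in KO and 2298 ± 852 in WT (SD; n = 4 per group), a log2 fold change of -1.62 (SE 0.41, 95% interval -2.46 to -0.77), which did not pass over all genes (adjusted p = 0.145 by limma). Its limma adjusted p ranged from 0.0118 to 0.591 over the alternatives, and it was under 0.05 with a pseudocount of 16 (0.0411), with sample weights (0.0118) and with KO library 3 (0.0287) or WT library 4 (0.0263) left out.

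Col6a1 (ENSMUSG00000001119), the next collagen gene on the same strand at 76544626 to 76562002, lay at 3028, 1210, 4119 and 2202 in KO and at 4593, 7301, 4301 and 2388 in WT. The KO values were again mostly under the WT values, with WT library 4 inside the KO range. Its log2 fold change was -0.84 (SE 0.34, 95% interval -1.55 to -0.14, adjusted p = 0.679 by limma). Col6a3 lay at 1787, 25.3, 481 and 278 in KO and at 388, 1331, 516 and 440 in WT. KO library 1 was the highest of all and KO library 2 held less than the worth of a single fragment, and its log2 fold change came to -1.06 (SE 0.84, adjusted p = 0.805 by limma). It was 0.08 without KO library 2. Col6a4, a relative of Col6a3, lay at 136, 0, 40.3 and 45.8 in KO and at 32.6, 0, 0 and 59.1 in WT (log2 fold change 1.76, SE 2.25), under the worth of a single fragment in 5 libraries. The median of the 4 tested type VI chains was -0.95, beside -0.12 over all genes. Over the same 4 chains, leaving out KO library 2 gave -0.21, with 2 negative and 2 positive, and leaving out WT library 2 gave -0.63.

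The ratio of Col6a1 to Col6a2 is free of scaling between libraries, and it did not overlap between the groups. Per kb it was 5.68, 7.08, 5.52 and 8.19 in KO libraries 1 to 4 and 3.53, 4.41, 3.33 and 4.07 in WT libraries 1 to 4. Every KO library thus held more Col6a1 for each Col6a2 than any WT library, with a difference of 0.78 in mean log2 ratio. The KO ratios rest on few molecules of Col6a2. It lay at 325 in KO library 2, where a single fragment was worth an estimated 150. In KO libraries 1 and 4 it lay at 1014 and 511, at 78.1 and 38.4 to a fragment. An exact two-sided permutation test gave p = 0.0286, the smallest that 4 against 4 allows, and 0.257 after Benjamini-Hochberg adjustment over the 9 chain ratios computed. The 9 ratios were chosen after member values had been seen.

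**Figure D3:**
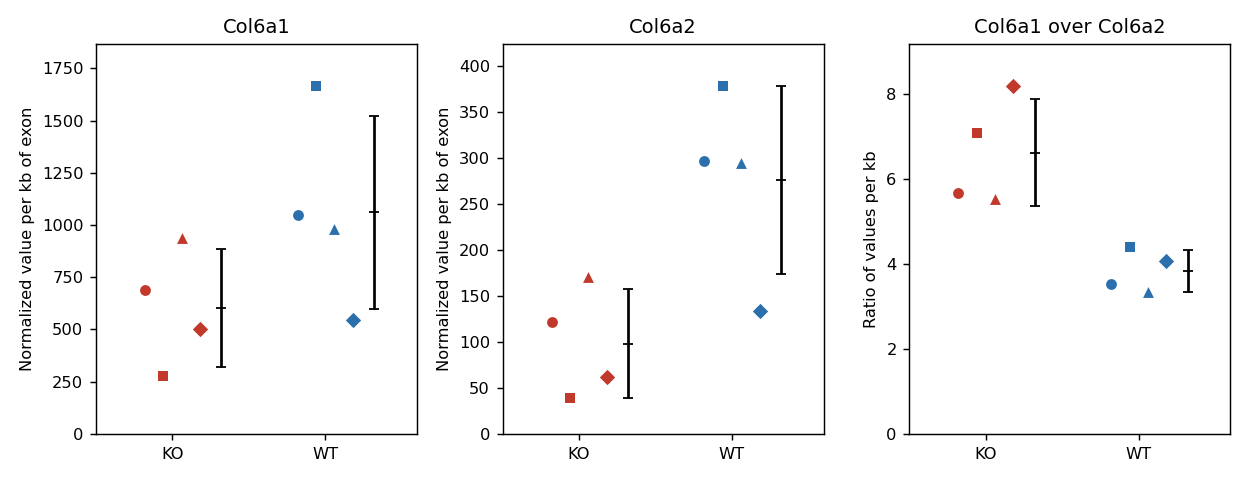
Normalized value per kb of exon of Col6a1 and of Col6a2, and the ratio of the first to the second, in each library (circle, square, triangle and diamond for libraries 1 to 4), with the mean and SD of each group (n = 4) in black. The values of both genes overlap between KO and WT, while the ratio is 5.52 or more in KO and 4.41 or less in WT. The Col6a2 value of KO library 2 (square) rests on few fragments.

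Because Col6a2 and Col6a1 are neighbouring collagen genes on the same strand, 85161 bases apart in the authors' table, the sequences before their starts are shown, with that of Col3a1, the most abundant fibrillar chain, beside them. They are from RefSeq on GRCm38.p6, 5′ to 3′ on the strand of the gene, cut where GENCODE M21 annotates an exon. Capitals mark a GC box (GGGCGG or its reverse complement), a CCAAT box (CCAAT, either strand) or a TATA box (TATAAA, either strand), none of which overlapped another.
Col6a2, chr10:76623631-76623880, minus strand, upstream of the outer of its 2 starts: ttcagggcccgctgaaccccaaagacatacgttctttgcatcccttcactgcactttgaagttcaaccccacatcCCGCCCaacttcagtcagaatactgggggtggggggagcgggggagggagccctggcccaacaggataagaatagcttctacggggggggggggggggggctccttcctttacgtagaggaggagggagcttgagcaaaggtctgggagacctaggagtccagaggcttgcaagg
Col6a1, chr10:76726169-76726294, minus strand: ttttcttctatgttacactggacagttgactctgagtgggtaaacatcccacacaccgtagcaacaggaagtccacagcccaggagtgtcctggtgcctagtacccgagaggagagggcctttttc
Col3a1, chr1:45311288-45311537, plus strand: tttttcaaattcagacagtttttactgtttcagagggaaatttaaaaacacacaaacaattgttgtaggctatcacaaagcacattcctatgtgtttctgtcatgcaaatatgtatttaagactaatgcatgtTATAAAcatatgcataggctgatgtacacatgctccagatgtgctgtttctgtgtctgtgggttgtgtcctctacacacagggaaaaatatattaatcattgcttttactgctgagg
The window before Col6a2 was 59.2% G or C with 1 GC box, and the window before Col3a1 was 35.2% G or C with 1 TATA box. Sequences were found for 28 of the 32 genes, in 30 windows of 250 bases. A GC box stood in 19 of the 30 windows and in 32.7% of all 32851 windows of that length, a CCAAT box in 11 and 33.8%, and a TATA box in 4 and 12.4%. These are matches of letters only.

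Fibrillar collagens were represented by 10 genes, of which 9 were tested and 7 had a negative log2 fold change. Col3a1 (ENSMUSG00000026043, mm39 chromosome 1, 45350698 to 45388866) lay at 9278, 2233, 2450 and 1484 in KO libraries 1 to 4 and at 3653, 7967, 3824 and 3007 in WT libraries 1 to 4. KO library 1 was the highest of the 8, and the other 3 KO libraries were below every WT library. The means were 3861 ± 3635 and 4613 ± 2264 (SD; n = 4 per group), and its log2 fold change came to -0.54 (SE 0.41, 95% interval -1.39 to 0.31, adjusted p = 0.792 by limma).

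Type I collagen is the main fibril of skin, bone and scar. Col1a1 lay at 3946, 910, 1074 and 358 in KO and at 1127, 1834, 2166 and 1508 in WT. Apart from KO library 1, again the highest, every KO value was below the lowest WT value. The log2 fold change of Col1a1 was -0.57 (SE 0.47, adjusted p = 0.813 by limma). Col1a2 lay at 4581, 189, 488 and 186 in KO and at 442, 1373, 675 and 445 in WT, with KO library 3 above WT libraries 1 and 4. Its KO mean of 1361 was above its WT mean of 734 through KO library 1 alone, while its log2 fold change was -0.30 (SE 0.72, adjusted p = 0.956 by limma). Without both KO library 1 and WT library 2, the log2 fold changes were -1.13 for Col1a1, -0.98 for Col1a2 and -0.79 for Col3a1, and none passed (limma adjusted p of 0.647, 0.782 and 0.532).

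Type V chains co-assemble with type I and set the width of its fibrils. Col5a1 lay at 2053, 607, 560 and 380 in KO and at 1304, 2862, 1754 and 720 in WT. The 3 lower KO libraries were below all WT libraries, and KO library 1 was above 3 of the 4 WT libraries. The log2 fold change of Col5a1 was -1.04 (SE 0.46, 95% interval -1.99 to -0.09, adjusted p = 0.730 by limma). Col5a2 lay at 641, 208, 79.2 and 35.5 in KO and at 107, 683, 151 and 223 in WT, with a log2 fold change of -0.67 (SE 0.90). Col5a3 lay at 184, 1.10, 109 and 63.9 in KO and at 135, 198, 195 and 67.0 in WT (log2 fold change -1.75, SE 1.42). Col27a1 ranged from 0 to 465 (-2.53, SE 1.95). Col11a1 (1.92, SE 1.99) and Col11a2 (1.75, SE 2.10), chains known from cartilage, were the 2 fibrillar genes with a positive value. Col11a1 lay at 105, 0, 0 and 30.8 in KO and at 0, 0, 15.5 and 0 in WT, and Col11a2 at 0, 193, 39.0 and 0 in KO and at 0, 0.95, 16.4 and 0.79 in WT. Each was thus under the worth of a single fragment in 7 of the 8 libraries. The fibrillar median was -0.57, beside -0.12 over all genes. Over the same 9 genes, leaving out KO library 1 gave -1.25, leaving out KO library 4 gave -0.04, and leaving out WT library 2 gave -0.24.

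**Figure D4:**
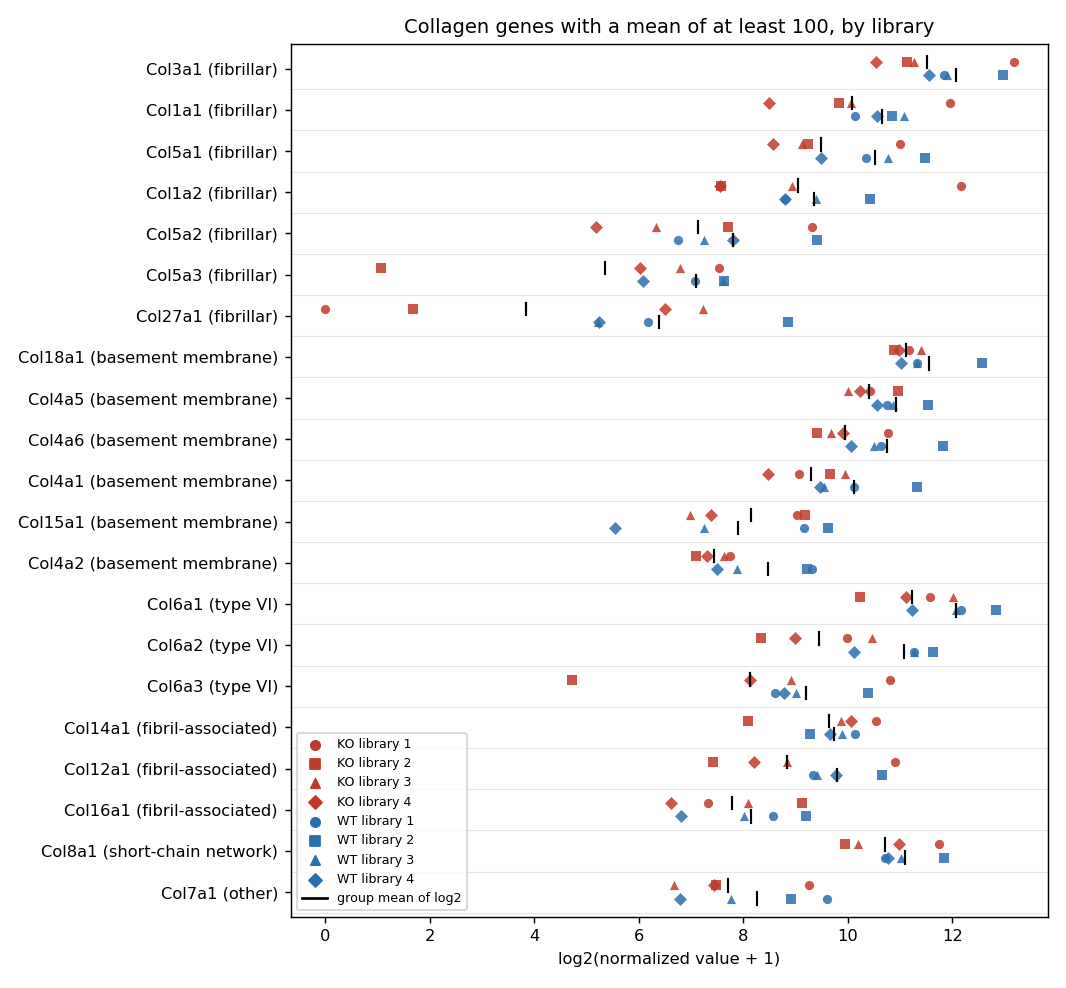
Value of each of the 21 collagen genes with a mean of at least 100 in each library, as log2(normalized value + 1) on the horizontal axis, with KO in red above WT in blue and the group mean of the log2 values as a black tick. KO library 1 (red circle) lies far right of the other KO libraries for Col3a1, Col1a1, Col1a2 and Col5a1, and WT library 2 (blue square) is the rightmost WT library for most genes.

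Basement membrane collagens were represented by 7 genes, of which 6 were tested and 5 had a negative log2 fold change. Type IV chains are encoded in head-to-head pairs. Col4a1 and Col4a2, which make the ubiquitous type IV network, overlap by 22 bases at their starts on mm39 chromosome 8, and Col4a6 and Col4a5 lie 1308 bases apart on chromosome X. The 22 bases are shown because strand was not stated for these libraries, so reads from there cannot be assigned to either gene. On GRCm38.p6 they read as follows on the strand of Col4a2, with a GC box in capitals:
Col4a1 and Col4a2, chr8:11312805-11312826: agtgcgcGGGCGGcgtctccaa
Col4a1 (ENSMUSG00000031502, mm39 chromosome 8, 11248423 to 11362826) lay at 537, 811, 988 and 354 in KO libraries 1 to 4 and at 1113, 2571, 742 and 704 in WT libraries 1 to 4. WT library 2 was far above the rest and the groups otherwise overlapped (log2 fold change -0.82, SE 0.42, adjusted p = 0.764 by limma). Col4a2 lay at 213, 137, 197 and 158 in KO and at 636, 594, 236 and 181 in WT. Its KO values were close together, and WT libraries 1 and 2 stood above all others (-1.03, SE 0.61, adjusted p = 0.770 by limma).

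The chains Col4a5 and Col4a6, which pair in the membranes of smooth muscle and some epithelia, had higher mean levels per kb than Col4a1. Col4a5 lay at 1379, 1990, 1026 and 1198 in KO and at 1715, 2953, 1860 and 1508 in WT. Col4a6 lay at 1752, 676, 814 and 961 in KO and at 1586, 3604, 1445 and 1062 in WT. Per kb, Col4a5 exceeded Col4a1 in each of the 8 libraries, with ratios from 1.15 to 3.76. The log2 fold changes were -0.52 (SE 0.28, adjusted p = 0.770 by limma) for Col4a5 and -0.81 (SE 0.36, adjusted p = 0.730 by limma) for Col4a6.

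Among the multiplexins, Col18a1, whose C-terminal fragment is endostatin, lay at 2312, 1881, 2690 and 2015 in KO and at 2579, 6048, 2572 and 2067 in WT. Apart from WT library 2 the 7 values were within 1881 and 2690, and its log2 fold change came to -0.45 (SE 0.29, 95% interval -1.05 to 0.14, adjusted p = 0.770 by limma), or -0.14 without KO library 1 and WT library 2. Col15a1 ranged from 125 to 577 in KO and from 45.7 to 789 in WT (log2 fold change 0.25, SE 0.81). Its sign turned when KO library 1 (-0.05), KO library 2 (-0.10) or WT library 4 (-0.54) was left out. The basement membrane median was -0.66, beside -0.12 over all genes, and -0.37 without WT library 2.

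The remaining collagens were of 4 further kinds. Of the fibril-associated chains, which sit on the surface of fibrils, Col12a1 lay at 1920, 171, 458 and 293 in KO and at 642, 1615, 680 and 881 in WT. The pattern was that of Col1a1, with KO library 1 highest and the other KO libraries below every WT library (log2 fold change -0.95, SE 0.55, adjusted p = 0.770 by limma). Col14a1 lay at 1483, 273, 933 and 1063 in KO and at 1131, 621, 944 and 812 in WT, with a log2 fold change of -0.11 (SE 0.43), and here WT library 2 was the lowest WT library. Col16a1 stood at a log2 fold change of -0.36 (SE 0.68), and Col20a1, at 0 in 6 libraries, of 0.35 (SE 2.13). Col8a1, of the short-chain network in vessel walls and the eye, lay at 3439, 982, 1175 and 2020 in KO and at 1687, 3675, 2084 and 1735 in WT (log2 fold change -0.37, SE 0.35, adjusted p = 0.834 by limma). Col7a1, which forms the anchoring fibrils of skin, ranged from 101 to 613 in KO and from 110 to 780 in WT (-0.55, SE 0.71).

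The lowest members carried no usable comparison. Col8a2 (log2 fold change -0.23, SE 2.01) and Col10a1 (-1.65, SE 2.11) were each under the worth of a single fragment in 7 libraries. So was the transmembrane collagen Col17a1 in all 8 (-2.43, SE 1.94), and Col23a1, of the same class, in 5 (-0.02, SE 2.24). The 3 genes that were not tested were at 0 in nearly every library: Col24a1 reached 25.5 in WT library 3 alone, Col4a4 45.5 in KO library 3 alone, and Col6a6 70.1 in KO library 3 and 0.79 in WT library 4.

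Other chain ratios overlapped between the groups. The ratio of Col1a1 to Col1a2 per kb, which code for chains that assemble in unequal numbers, was 1.63 to 9.10 in KO and 2.53 to 6.42 in WT. Col4a1 over Col4a2 was 1.99 to 5.27 in KO and 1.55 to 3.84 in WT. Col3a1 over Col1a1 was 1.18 to 2.90 over all 8 libraries, with KO library 1 inside at 1.57. Of the 8 ratios other than Col6a1 over Col6a2, the smallest exact two-sided permutation p was 0.486, for Col4a5 over Col4a1.

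Genes that make, trim and hold collagen were counted from fixed lists, and none of their tested members passed in either direction. Among enzymes and chaperones that modify and fold the chains, 0 of 19 tested genes passed, the median log2 fold change was -0.17 and 13 were negative, beside a median of -0.12 over all genes. Plod1, a lysyl hydroxylase, had a mean of 814 ± 305 in KO and 1616 ± 357 in WT (SD; n = 4 per group), with every KO library below every WT library (log2 fold change -1.05, SE 0.32, adjusted p = 0.367 by limma). P3h3, a prolyl 3-hydroxylase, was listed at 0 in all 4 KO libraries and at 0.93, 39.7, 35.5 and 84.4 in WT libraries 1 to 4. WT libraries 1 and 2 were under the worth of a single fragment there, so the values rest on few molecules. The log2 fold change of P3h3 was -4.48 (SE 1.84, adjusted p = 0.707 by limma). P4hb, the most abundant of the list and a subunit of prolyl 4-hydroxylase, stood at a log2 fold change of -0.17 (SE 0.23). Among procollagen proteinases and crosslinking enzymes, 0 of 11 passed, 8 were negative and 3 positive, and the median was -1.06, with the lysyl oxidase Loxl4 at -3.82 (SE 1.72) and the transglutaminase Tgm2 at 0.58 (SE 0.27).

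Among proteins that bind fibrils, 0 of 17 passed, 13 were negative and 4 positive, and the median was -0.72, beside 56.6% negative over all genes. Postn (periostin) stood at a log2 fold change of -1.33 (SE 0.35, adjusted p = 0.201 by limma) and the small proteoglycan Ogn of -0.64 (SE 0.25). Thbs1 (thrombospondin), the most abundant of them, had the opposite sign (0.51, SE 0.29). Among laminins, nidogens and other partners of the basement membrane, 0 of 14 passed, 9 were negative and 5 positive, and the median was -0.40. Hspg2 (perlecan) was at 1764 ± 661 in KO against 3533 ± 1765 in WT (SD; n = 4 per group; log2 fold change -0.93, SE 0.33, adjusted p = 0.587 by limma), and Sparc, a collagen-binding glycoprotein, at -0.72 (SE 0.32).

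Of 12 tested collagen receptors 0 passed, and 9 were negative and 3 positive, with a median of -0.23. Itga1, the alpha-1 integrin chain by which activated T cells bind collagen, lay at 1365, 1364, 1266 and 1175 in KO libraries 1 to 4 and at 115, 807, 384 and 772 in WT libraries 1 to 4. Every KO value was above every WT value, and its log2 fold change came to 1.66 (SE 0.47), which did not pass over all genes (adjusted p = 0.286 by limma). Ddr2, a receptor kinase for fibrillar collagen, stood at a log2 fold change of -0.83 (SE 0.28), and Itgb1, the most abundant, of -0.28 (SE 0.24). Of 18 genes for breakdown and its inhibitors 0 passed, and 11 were negative and 7 positive, with a median of -0.29. Mrc1, a mannose receptor of macrophages that takes up collagen, stood at a log2 fold change of -0.73 (SE 0.21, adjusted p = 0.286 by limma), the membrane-type metalloproteinase Mmp16 of -1.22 (SE 0.37, 0.354), and the lysosomal protease Ctsb of -0.46 (SE 0.21). In the TGF-beta pathway, a main inducer of collagen genes, 0 of 20 passed, 10 were negative and 10 positive, and the median was -0.02. Its targets differed in sign, with Ccn1 at -0.94 (SE 0.28), Smad7 at 0.62 (SE 0.23) and Skil at 0.51 (SE 0.19).

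Sums of markers for other cell types were set beside the collagens. The 14 fibroblast markers, of which 13 were tested and 0 passed, summed to 6521 to 11401 in KO and 8691 to 19069 in WT, highest in WT library 2 and, within KO, in library 1, the same libraries as for collagen, while the other 3 KO libraries ranked differently from collagen. Of the 13 tested, 7 were negative and 6 positive, with a median log2 fold change of -0.40, beside 56.6% negative over all genes. Pdgfrb, a receptor of fibroblasts and pericytes, stood at a log2 fold change of -1.18 (SE 0.40), with KO below WT in every library, and Pdpn, the most abundant, of 0.04 (SE 0.27). Among the low fibroblast markers, Dcn ranged from 0 to 389, Lum from 0 to 201 and Dpt from 0 to 115. Pericyte and smooth muscle markers (6 of 8 analysed) summed to at most 1014 in KO, with KO library 2 near 0, and to 430 to 1400 in WT, and the endothelial ones (10 of 10) to 894 to 1874 and 986 to 2442. Of the 6 pericyte and smooth muscle genes tested, 5 were negative and 1 positive, with a median of -2.15. Among them, Cspg4 had every KO library below every WT library (log2 fold change -2.54, SE 1.25, adjusted p = 0.751 by limma). It lay at 2.20 in KO library 2, under the worth of a single fragment. Of the 7 endothelial genes tested, 5 were negative and 2 positive, with a median of -0.49. Tumour and epithelial markers (6 of 9 analysed) summed to 1043 to 1789 in KO and, in WT, 801 to 2188. Of the 5 tested, 2 were negative and 3 positive, with a median of 0.30.

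CD8 T cell markers ran the other way, with overlapping sums of 20997 to 45062 in KO against 7917 to 26203 in WT. Of the 12 tested, 11 were positive and 1 negative, with a median log2 fold change of 0.72, beside 56.6% negative over all genes. The CD8 sums were lowest of the WT libraries in WT library 2 and lowest of the KO libraries in KO library 1, the 2 libraries with the most collagen. Macrophage and monocyte markers summed to 111807 to 256174 in KO and 189660 to 296115 in WT. Of the 13 tested, 12 were negative and 1 positive, with a median of -0.45. Dendritic cell markers summed to 1223 to 2747 in KO and 634 to 1077 in WT, and neutrophil, B cell and NK markers stayed under 735 in every library. Red cell and platelet markers summed to 3.30 to 523 in KO and 228 to 962 in WT, and the globin gene Hbb-bs spanned 0 to 1.10 in KO against 68.8 to 177 in WT. No gene of these lists passed. The part of these cell types in the collagen values was not tested, and in bulk RNA fewer cells of a type and less RNA per cell cannot be told apart.

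**Figure D5:**
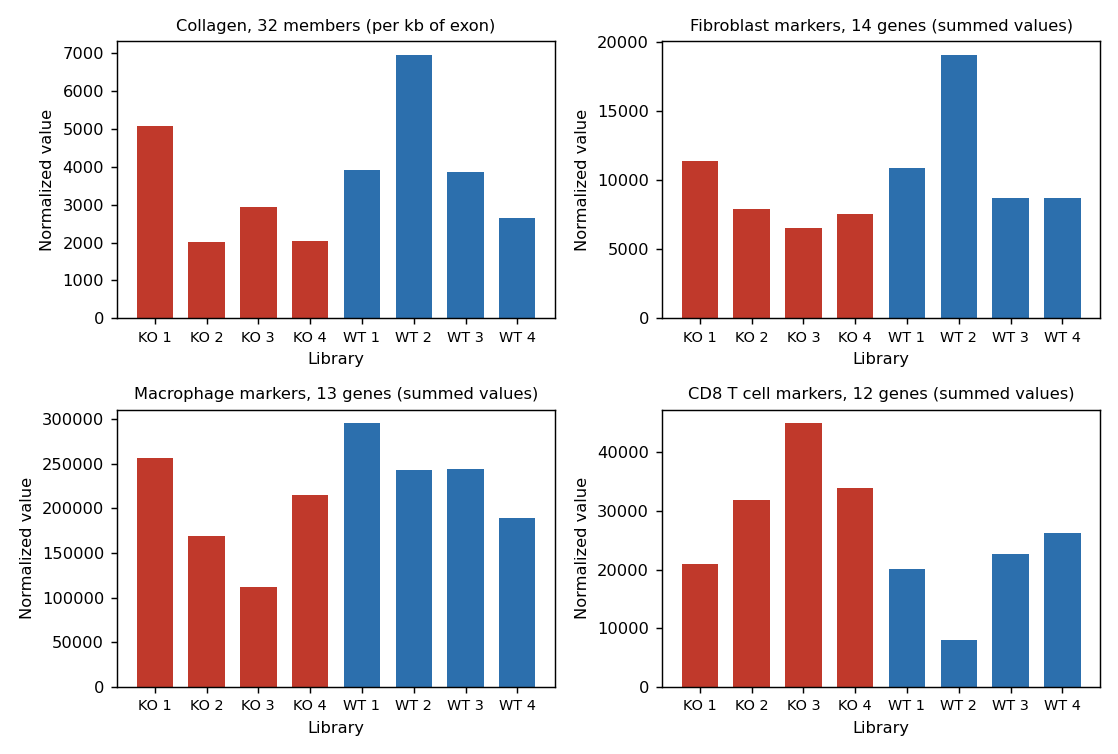
Summed level in each library of the 32 collagen genes (normalized value per kb of exon) and of the fibroblast, macrophage and CD8 T cell markers (normalized values), KO in red and WT in blue. WT library 2 has the most collagen (6948) and fibroblast marker signal (19069) and the least CD8 marker signal (7917).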

How the data were processed

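Bulk RNA of cells sorted from tumours as CD8 T cells was measured in 8 libraries, 4 KO and 4 WT. The authors deposited a normalized signal for each gene: by the name of the table, estimated counts over a size factor. Tools named in the submitters' notes are STAR 2.7.8a, Partek and DESeq2, with mm39 as the build and no roles given. Kits in the labels' protocols are QIAseq FastSelect for ribosomal depletion and PrepX for libraries. Of values up to 500 reads, 81.7% to 88.1% were within 0.02 of a whole read, so a count model was not used. Distinct fragments were estimated by a Poisson draw from the share of genes averaging 20 to 500 elsewhere that had under 3 reads in the library.

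Values were fitted as log2(value + 1) for 16120 genes with a mean of at least 10, in limma 3.58.1 (R 4.3.3, eBayes with trend), KO against WT, two-sided. Adjusted p-values are Benjamini-Hochberg over all genes tested, with a threshold of 0.05. No same-group libraries were identical, and they correlated at 0.773 to 0.854. The model was tested on simulated data in which only abundant genes were changed, so that test did not cover changes in the lower collagens. Alternatives covered pseudocount, filter, scaling (trimmed mean of M values, TMM, or quantile), sample weights, robust hyperparameters, a replicate block and each library left out. Such fits apply the mean filter again, so their counts can cover other genes, while medians with libraries left out are over the genes of the main test. An alternative without KO library 1 and WT library 2 was chosen after seeing the data. Collagen genes, lists and tests were chosen with earlier results of these data known. All tested collagens are named, and from each pathway list up to 3 genes, by smallest p (2) or highest mean (1).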

Additional observations from a re-analysis of the deposited data

Results flagged for a closer look

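Within a group of 4, single libraries stood far from the other 3 in 16 of 68 sets of values examined. The limit was a gap over 0.829 of the group's range, which flags about 1 in 20 sets of independent, normally distributed values. The values here were not log-transformed and the sets share the same 8 libraries, so that rate does not apply. In 5 of the 16 sets the other 3 libraries were all at 0, so the gap equals the range. In KO library 1 these were Col3a1 (9278, against 1484 to 2450 in the other KO libraries), Col1a2 (4581, against 186 to 488), Col5a1 (2053, against 380 to 607), Col12a1 (1920, against 171 to 458), Col7a1 (613.5, against 101 to 177) and the summed fibrillar level per kb (2259, against 288 to 560). In WT library 2 these were Col3a1 (7967, against 3007 to 3824), Col18a1 (6048, against 2067 to 2579), Col6a3 (1331, against 388 to 516) and Col27a1 (464.6, against 36.5 to 71.6). The others were low values, worth less than 1 fragment to a few: Col20a1 in KO library 2 (223.5) and WT library 1 (83.72), Col8a2 (134.6) and Col17a1 (12.65) in KO library 1, and Col11a2 (16.41) and Col11a1 (15.49) in WT library 3.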

How the results depend on the processing

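Among all genes, 38 passed as reported, 77 with a pseudocount of 16, 15 with a minimum mean of 50, 112 with sample weights, 0 with the replicate block, 13 without KO library 1 and WT library 2, and 7 to 70 with a single library left out. Of the collagens, 0 passed as reported, 1 (Col6a2) with a pseudocount of 16 or sample weights, and 0 to 1 with a library left out. The 4 lower at an unadjusted p under 0.05 were 2 with a minimum mean of 50 or robust hyperparameters, 9 with sample weights, 5 with the replicate block and 1 to 10 with a library left out. Log2 fold changes changed sign for Col8a2 (0.33 with a pseudocount of 16, 1.33 with quantile scaling), for Col23a1 (0.22 with quantile scaling, 0.18 with sample weights), with sample weights for Col20a1 (-0.28), Col14a1 (0.11) and Col11a2 (-0.46), and without KO library 1 and WT library 2 for Col6a4 (-0.021) and Col16a1 (0.14). Leaving out libraries, singly or as that pair, turned the sign in ranges of -1.60 to 1.95 for Col20a1, -0.56 to 0.41 for Col14a1, -0.54 to 0.82 for Col15a1, -1.34 to 0.20 for Col1a2, -0.021 to 3.26 for Col6a4, -0.80 to 0.14 for Col16a1, -1.94 to 0.084 for Col6a3, -1.13 to 1.21 for Col23a1 and -0.90 to 0.48 for Col8a2. The causes were not tested. The limma call of Mtdh (log2 fold change -1.23) ended with a minimum mean of 50 (-1.23, adjusted p = 0.0945), with the replicate block (-1.23, adjusted p = 0.0627), without KO library 1 and WT library 2 (-1.20, adjusted p = 0.111) and in 5 of the 8 fits that left out a single library (-1.38 to -1.04 over the 8). Same-numbered KO and WT libraries deviated together by a correlation of 0.0162 to 0.0757, under 0.1 in every pair, so the replicate block pairs samples by number only.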
